A study of Mus musculus with 9 samples.

Results

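Atf4 and 9 genes known as its targets in the amino acid response were followed in Neuro-2a (N2a) cells, a mouse neuroblastoma line, with and without knockdown of Arf1, a small GTPase of Golgi and lipid droplet traffic. The 10 genes, Atf4, Asns, Psat1, Phgdh, Shmt2, Mthfd2, Chac1, Trib3, Sesn2 and Ddit4, were chosen by name as known members of the pathway, with earlier results of these libraries known. All 10 are among the 21899 genes of the deposited table, and all 10 passed the filter on low counts that left 12448 genes for testing.

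The measurement was RNA-seq of polyadenylated RNA in 9 libraries. The 3 control libraries (shlucif) came from N2a cells carrying a hairpin against luciferase, which mouse cells do not have, and 3 libraries each came from cells carrying 1 of 2 hairpins against Arf1 (shArf1-1 and shArf1-2). Every library, the controls included, came from cells with a lentiviral hairpin vector and puromycin selection, the labels give no treatment beyond that, and the 6 libraries with either Arf1 hairpin are called Arf1-deficient. The labels do not say whether libraries of a group came from separate cultures, so p-values measure the spread between these libraries, which may be technical.

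Atf4 encodes a basic leucine zipper transcription factor that cells make more of when a kinase phosphorylates the translation factor eIF2. The kinases answer to different stresses, Eif2ak4 (Gcn2) to uncharged tRNA and Eif2ak3 (Perk) to misfolded protein in the endoplasmic reticulum. Much of this control acts on the translation of Atf4 mRNA, which RNA-seq does not see. The protein binds composite C/EBP-ATF elements near genes for amino acid synthesis, amino acid uptake and tRNA charging, and near stress genes that curb growth or glutathione. The study blotted marker proteins of endoplasmic reticulum stress in N2a cells, and its antibodies include those to Atf4, phosphorylated Perk and BiP (Hspa5). From these western blots it reported severe stress of this kind with Arf1 deficiency, which blocking lipid synthesis removed. The comparison here asks how Atf4 mRNA and the mRNAs of its known targets stand in the same cells.

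Library totals ranged from 11182479 to 15594615 counts. Arf1 itself was at 697 ± 21.7 CPM (the count relative to the library total after TMM scaling) in shlucif, 266 ± 4.45 CPM with shArf1-1 and 337 ± 17.3 CPM with shArf1-2 (mean ± SD, n = 3 each), a log2 fold change of -1.21 ± 0.09 (SE) in the Arf1-deficient libraries. Of 16 neuroblast and neuronal markers, 14 reached 20 counts in each library of each group. All 16 together summed to 2482 to 2583 CPM in shlucif, 3542 to 3926 CPM with shArf1-1 and 3488 to 3731 CPM with shArf1-2. By the test described below, 14 of the 16 were higher in the Arf1-deficient libraries. Only Map2 was lower, at 59.3 ± 4.92 CPM against 84.1 ± 6.49 CPM in shlucif. Markers of macrophages, a cell type the labels do not name, summed to 325 to 396 CPM in the shlucif libraries, 1.03 to 1.46 CPM with shArf1-1 and 1.21 to 1.88 CPM with shArf1-2. Of the 18 macrophage markers, 13 reached 20 counts in all 3 shlucif libraries, and 14 never exceeded 3 counts in any of the 6 Arf1-deficient libraries. The defining markers Spi1, Itgam and Ctss were at 0 counts in all 6 Arf1-deficient libraries. The macrophage markers therefore moved with every comparison against shlucif below, and their part in the results was not tested. In bulk RNA, fewer cells of a type and less RNA per cell cannot be told apart.

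Of the 12448 genes tested, 64.5% passed an adjusted p under 0.05 between Arf1-deficient and shlucif libraries (edgeR's quasi-likelihood test, Benjamini-Hochberg adjustment over all tested genes, as for every adjusted p below), 31.6% higher and 32.9% lower. Against that background 6 of the 10 genes passed, 3 higher (Atf4, Chac1 and Sesn2) and 3 lower (Phgdh, Asns and Mthfd2), so the genes as a set were called about as often as any others. The remaining 4, Psat1, Shmt2, Trib3 and Ddit4, did not pass. The same 6 genes were those whose 6 Arf1-deficient libraries did not overlap the 3 shlucif libraries, a property of 58.1% of tested genes. The median log2 fold change of the 10 genes was -0.09, beside 0.003 over all tested genes, and it stood between changes from -0.62 to 0.68.

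**Figure D1:**
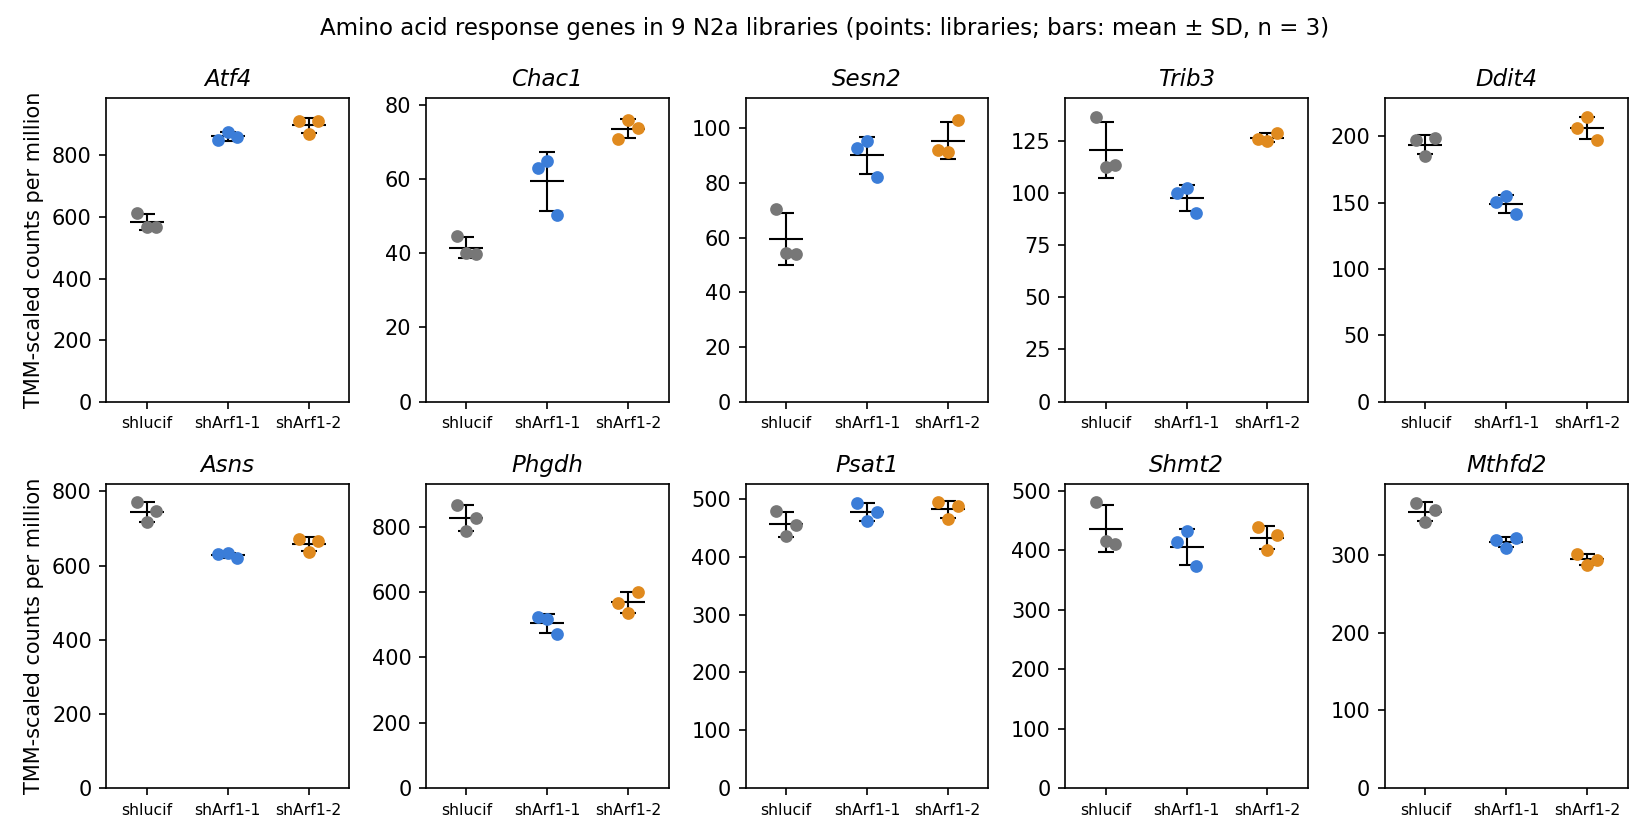
CPM after TMM scaling (vertical axes, from 0) for each of the 10 genes in the 3 shlucif, 3 shArf1-1 and 3 shArf1-2 libraries; points are libraries and bars the mean ± SD. All 6 Arf1-deficient points lie above the 3 shlucif points for Atf4, Chac1 and Sesn2 and below them for Asns, Phgdh and Mthfd2, while for Trib3 and Ddit4 only the 3 shArf1-1 points lie below.

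Sequence near the start of 3 of these genes is shown because it holds the letters of the element that the Atf4 protein is known to bind. In RefSeq windows of 300 bases (GRCm38.p6, 250 bases before a transcript's start to 50 after it), all 10 genes were matched by symbol. The string TGATGNAA, the core of the C/EBP-ATF element, was searched on both strands and found in 3.97% of 32851 windows, and in a window of 3 of the 10 genes (Asns, Chac1 and Trib3). TGACGCAA, a variant of the element, was in 0.49% of windows and here only in that of Chac1. TGACGTCA, the palindromic cAMP response element, was in 1.79% of windows and in none of the 10 genes. The 3 strings cannot overlap in the same letters, a match is a description of the sequence, and the absence of a match speaks only of these windows. In the stretches below, read 5′ to 3′ on the strand of the gene, the capitals mark the matched strings, and positions count from 1 at the RefSeq start and from -1 before it.
Chac1, chr2:119350992-119351101, plus strand: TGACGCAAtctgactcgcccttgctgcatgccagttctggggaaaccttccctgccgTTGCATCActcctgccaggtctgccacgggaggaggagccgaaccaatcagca
Asns, chr6:7693214-7693243, minus strand: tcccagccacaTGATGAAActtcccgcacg
Trib3, chr2:152344028-152344057, minus strand: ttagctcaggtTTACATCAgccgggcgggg
In Chac1 TGACGCAA stands at positions -250 to -243 and the other string, on the opposite strand, at -193 to -186, with no annotated exon in the stretch. In Asns the match is at -23 to -16, which is before the RefSeq start but inside the first exon of the GENCODE annotation, whose transcript starts at 7693254. In Trib3 the match lies at 15 to 22 after the RefSeq start, on the opposite strand, and before the GENCODE start at 152344032. The 3 genes that share the string did not share a direction, since Chac1 was higher, Asns lower and Trib3 not called in the Arf1-deficient libraries.

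Atf4 (chr15:80255184-80257541, plus strand, 2358 exonic bases, in GRCm38) was higher in every Arf1-deficient library than in any control. Its level was 613, 569 and 566 CPM in the shlucif libraries, 849.6, 877 and 859 CPM with shArf1-1 and 910.5, 871 and 912 CPM with shArf1-2. The gap from the highest control to the lowest Arf1-deficient library was wider than the spread within any group, and the libraries of the 2 hairpins overlapped each other. The mean rose from 583 ± 26.4 CPM (SD, n = 3) to 879.8 ± 26.2 CPM (SD, n = 6), a 1.51-fold difference (log2 fold change 0.59, SE 0.05, adjusted p = 2.285e-09). Each hairpin gave nearly the same value, 0.56 (95% interval 0.46 to 0.66) with shArf1-1 and 0.62 (0.52 to 0.72) with shArf1-2. The difference between the hairpins was 0.06 (95% interval -0.04 to 0.16, adjusted p = 0.467), so an unequal response beyond 0.16 lies outside the interval.

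Chac1 (chr2:119351229-119354381, plus strand) encodes a gamma-glutamylcyclotransferase that breaks down glutathione, and is among the most strongly induced genes of the Atf4 pathway in other cells. It was at 44.7, 40.01 and 39.7 CPM in shlucif, 62.8, 64.9 and 50.3 CPM with shArf1-1, and 70.8, 75.9 and 73.8 CPM with shArf1-2. The 3 groups did not overlap one another, with shArf1-2 the highest. Chac1 rose 1.60-fold in the Arf1-deficient libraries (log2 fold change 0.68, SE 0.11, adjusted p = 3.57e-05). Its change was 0.51 (SE 0.08) with shArf1-1 and 0.82 (SE 0.08) with shArf1-2.

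Sesn2 (chr4:132492032-132510501, minus strand) encodes sestrin 2, a leucine sensor that holds back mTORC1 through the GATOR2 complex. Its level was 70.6, 54.2 and 54.1 CPM in shlucif, 92.7, 95.1 and 82.2 CPM with shArf1-1 and 91.9, 91.4 and 103 CPM with shArf1-2. The control libraries spread widely, with replicate 1 above the other 2, yet all 6 Arf1-deficient libraries lay above it. Sesn2 rose 1.55-fold (log2 fold change 0.64, SE 0.09, adjusted p = 3.449e-06), by 0.59 with shArf1-1 and 0.68 with shArf1-2. The difference between the hairpins was 0.09 (95% interval -0.09 to 0.26), which did not pass the threshold (adjusted p = 0.559).

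Trib3 and Ddit4 are the other 2 growth-restraining targets, and both were lower with shArf1-1 and not called with shArf1-2. Trib3 (chr2:152337422-152344032, minus strand) encodes a pseudokinase that binds Atf4 and Akt. It was at 136, 113 and 113 CPM in shlucif, 99.95, 102 and 90.2 CPM with shArf1-1 and 126, 125 and 129 CPM with shArf1-2. The shArf1-1 libraries lay below every control, while the shArf1-2 libraries stood between control replicate 1 and the other controls. The log2 fold change was -0.31 (SE 0.07, adjusted p = 0.000146) with shArf1-1 and 0.07 (95% interval -0.07 to 0.20, adjusted p = 0.382) with shArf1-2. Without shlucif replicate 1 the value with shArf1-2 was 0.16 and passed (adjusted p = 0.0333).

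Ddit4 (chr10:59949669-59951834, minus strand) encodes Redd1, which restrains mTORC1 through the Tsc1-Tsc2 complex. Its level was 197, 185 and 199 CPM in shlucif, 151, 155 and 142 CPM with shArf1-1 and 206.5, 214 and 198 CPM with shArf1-2. The shArf1-1 libraries were again the only ones below the controls. Ddit4 fell by 0.38 on the log2 scale with shArf1-1 (SE 0.06, adjusted p = 2.681e-07), and its value with shArf1-2 was 0.09 (95% interval -0.02 to 0.20, adjusted p = 0.152). Under library size scaling, or in the deposited FPKM, the value with shArf1-2 was 0.16 and passed the threshold as higher (adjusted p = 0.00878 to 0.0113), so that call rests on the scaling.

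**Figure D2:**
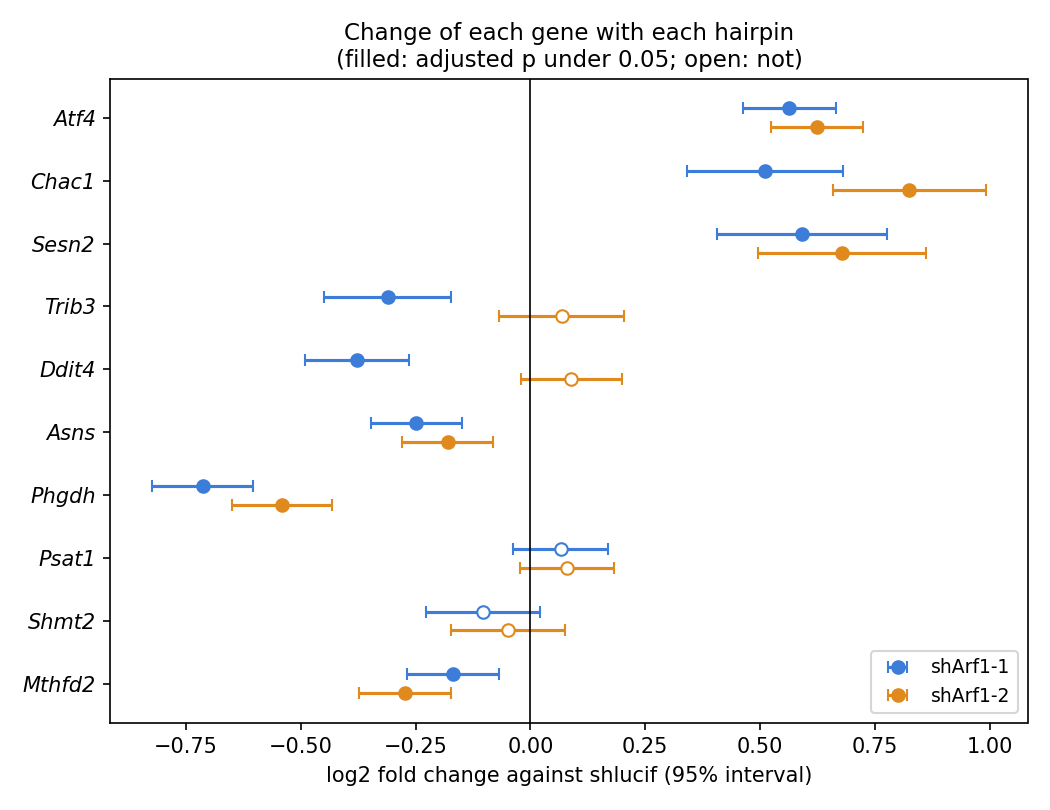
Log2 fold change against shlucif (horizontal axis) of each of the 10 genes with shArf1-1 and with shArf1-2, with 95% intervals from the edgeR fit of 3 groups; filled points passed an adjusted p under 0.05. Both hairpins are on the right for Atf4, Chac1 and Sesn2 and on the left for Asns, Phgdh and Mthfd2, and for Trib3 and Ddit4 the shArf1-1 point is on the left with the shArf1-2 interval spanning 0.

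Of the 10 genes, 5 encode enzymes of amino acid and one-carbon synthesis. Phgdh and Psat1, followed by Psph, make serine from a glycolytic intermediate, Shmt2 and Mthfd2 carry its one-carbon unit through the mitochondrial folate pathway, and Asns makes asparagine from aspartate. Of these 5, 3 were lower in the Arf1-deficient libraries (Phgdh, Asns and Mthfd2), and Psat1 and Shmt2 did not pass. Over all tested genes 64.5% passed, 32.9% as lower.

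Phgdh (chr3:98313170-98339990, minus strand), the first enzyme of serine synthesis, had the largest fall of the 10 genes. It was at 866, 787 and 826 CPM in shlucif, 525, 516 and 471 CPM with shArf1-1 and 566, 537 and 600.5 CPM with shArf1-2. Every Arf1-deficient library lay below every control, and the shArf1-1 libraries lay below those of shArf1-2. Its log2 fold change was -0.62 (SE 0.06, adjusted p = 5e-08), a level 0.649 times that of shlucif. Of the 2434 distinct 50-base strings in its annotated transcripts, 47.8% also occur in other annotated genes, 23 in number. None of the 23 has a line of its own under that name in the deposited table. How reads from those strings were counted is not stated, so the level of Phgdh is uncertain.

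Asns (chr6:7675169-7693254, minus strand) was at 772, 717 and 748 CPM in shlucif, 631, 633 and 619 CPM with shArf1-1 and 672, 637 and 665 CPM with shArf1-2. The 6 Arf1-deficient libraries were all below the controls, by a small margin. Asns fell by 0.21 on the log2 scale (SE 0.05, adjusted p = 0.000431), and no 50-base string of its transcripts occurs in another annotated gene. It fell with each hairpin, by 0.25 with shArf1-1 and 0.18 with shArf1-2.

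Mthfd2 (chr6:83305691-83325908, minus strand), a mitochondrial methylenetetrahydrofolate dehydrogenase, was at 368, 343 and 358 CPM in shlucif, 319.7, 309 and 321 CPM with shArf1-1 and 302, 288 and 294 CPM with shArf1-2. The groups stood in that order without overlap. Mthfd2 fell by 0.22 on the log2 scale (SE 0.05, adjusted p = 0.000733). The step from shArf1-1 to shArf1-2 was -0.10 (95% interval -0.20 to -0.003), which did not pass the threshold over all genes (adjusted p = 0.169).

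Psat1 (chr19:15904678-15947337, minus strand), the aminotransferase that follows Phgdh, ranged from 436 to 479 CPM in shlucif and stood at 478 ± 15.9 CPM with shArf1-1 and 482 ± 15.1 CPM with shArf1-2 (SD, n = 3 each). The groups overlapped, and the log2 fold change was 0.07 (95% interval -0.03 to 0.17, adjusted p = 0.187). Under library size scaling, or in the deposited FPKM, the value was 0.13 to 0.14 and passed the threshold, so the call for Psat1 rests on the scaling. Shmt2 (chr10:127517123-127522444, minus strand), the mitochondrial serine hydroxymethyltransferase, was at 436 ± 39.3 CPM in shlucif, 406 ± 30.4 CPM with shArf1-1 and 422 ± 19.8 CPM with shArf1-2. Its log2 fold change was -0.08 (95% interval -0.20 to 0.05, adjusted p = 0.277), with control replicate 1, at 482 CPM, above every other library. Shmt2 shares 32 exonic bases with Ndufa4l2 on the opposite strand, and whether counting used strand is not stated.

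Each hairpin taken alone gave the same split among the genes called with both. With shArf1-1, 8 of the 10 genes passed, 3 higher and 5 lower, where 67.5% of all genes passed, 33.1% higher and 34.4% lower. With shArf1-2, 6 passed, 3 higher and 3 lower, where 63.4% of all genes passed, 30.9% higher and 32.6% lower. The 2 comparisons share their 3 control libraries. The difference between the hairpins passed for 4 of the 10 genes, all 4 higher with shArf1-2, where 14.4% of all genes passed, 6.98% higher and 7.46% lower with shArf1-2. These 4 were Ddit4 (0.47, SE 0.06, adjusted p = 2.635e-07), Trib3 (0.38, SE 0.07, adjusted p = 0.000162), Chac1 (0.31, SE 0.08, adjusted p = 0.00637) and Phgdh (0.17, SE 0.05, adjusted p = 0.0262). Arf1 itself was also higher with shArf1-2 than with shArf1-1, by 0.34 on the log2 scale (SE 0.05, adjusted p = 1.16e-05), and its part in the 4 differences was not tested. Without shArf1-1 replicate 3, which had the lowest level of Chac1, Phgdh, Trib3 and Ddit4 among the Arf1-deficient libraries, the Chac1 difference was 0.20 (adjusted p = 0.0832) and that of Phgdh 0.13 (adjusted p = 0.142), while those of Ddit4 and Trib3 still passed. The Phgdh difference was also lost without shArf1-2 replicate 1 (0.18, adjusted p = 0.0758) or replicate 3 (0.13, adjusted p = 0.181).

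Levels of different genes can be compared only per length, in the deposited FPKM, a count scaled by gene length and library total. In shlucif Phgdh was the highest of the 10 genes at 323 ± 12.04 FPKM, followed by Asns at 265 ± 6.83 FPKM and Atf4 at 239.9 ± 9.11 FPKM, with no overlap between these neighbours over the 3 libraries. With both hairpins Atf4 was the highest, at 368 ± 6.18 FPKM with shArf1-1 and 388 ± 6.48 FPKM with shArf1-2, and Asns came second. Asns at 245 ± 4.74 FPKM and Phgdh at 233 ± 11.1 FPKM overlapped in the shArf1-2 libraries. Below them stood Shmt2 at 132 to 138 FPKM in the 3 group means, then Psat1, Ddit4 and Mthfd2 in an order that varied between groups, of which Ddit4 overlapped Psat1 and Psat1 overlapped Mthfd2 in shlucif. Trib3, Chac1 and Sesn2 were the 3 lowest in every group, and Sesn2 the lowest of all at 16.6 ± 2.505 FPKM in shlucif, with no overlap between the neighbours.

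Set against Atf4 in the same library, Asns mRNA fell from 1.10 ± 0.03 times the FPKM of Atf4 in shlucif to 0.628 ± 0.011 with shArf1-1 and 0.632 ± 0.004 with shArf1-2 (SD, n = 3 each). Phgdh went from 1.34 ± 0.04 to 0.555 ± 0.033 and 0.5998 ± 0.0213, and Mthfd2 from 0.413 ± 0.012 to 0.248 ± 0.009 and 0.222 ± 0.003. The groups of these 3 ratios did not overlap the controls. Sesn2 kept nearly the same ratio, 0.0692 ± 0.0077 in shlucif, 0.0709 ± 0.0051 with shArf1-1 and 0.0721 ± 0.0042 with shArf1-2, with overlapping libraries. These ratios carry the rise of Atf4 in their denominator and were not tested.

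**Figure D3:**
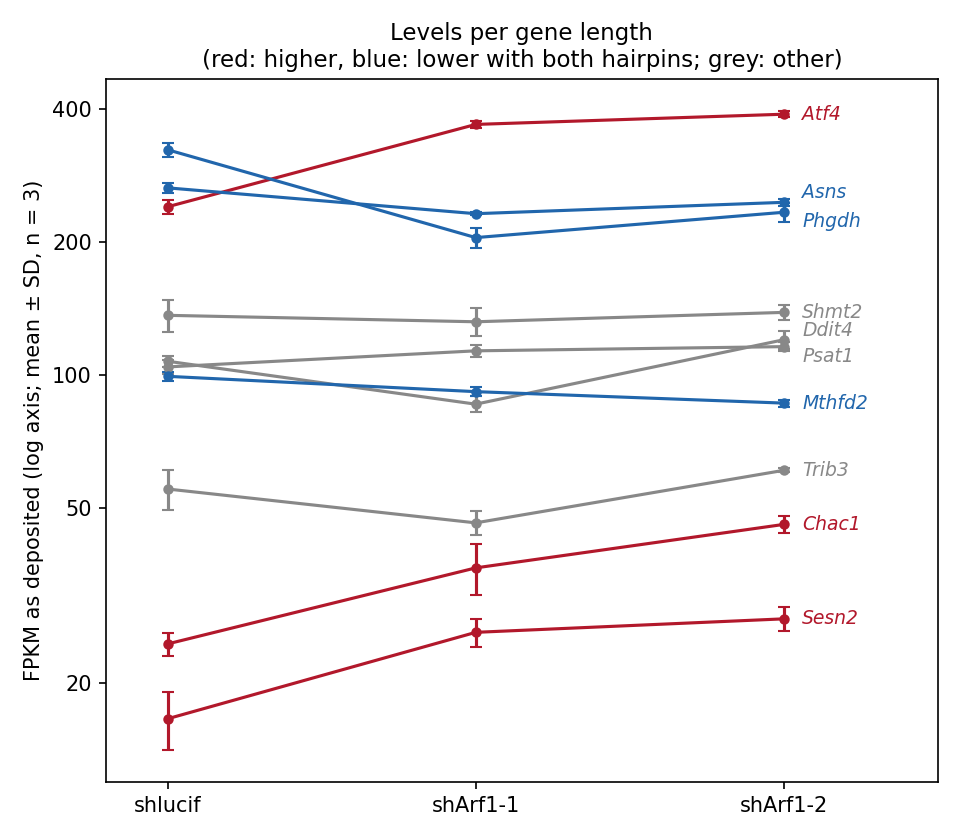
Deposited FPKM of the 10 genes (log axis, mean ± SD of 3 libraries) in shlucif, shArf1-1 and shArf1-2; red lines are genes higher and blue lines genes lower with both hairpins, grey lines the others. Phgdh, at 323 FPKM, is the top line in shlucif, and Atf4 the top line with either Arf1 hairpin, at 368 and 388 FPKM.

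The genes closest to Atf4 over the 9 libraries, by the root mean square difference of log2 CPM after each gene was centred on its mean, were Slc16a3 (0.0238), Dok4 (0.0313), Tmem164 (0.0335), Ciapin1 (0.0352) and Tacc3 (0.0370), out of 10589 genes whose higher group reached 5 CPM. The median distance was 0.316. Among the 9 targets Sesn2 ranked 365th at 0.1003 and Chac1 1267th at 0.149, and the other 7 ranked between 3729th (Psat1) and 9008th (Phgdh).

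The rest of the pathway was described with 99 further genes in 9 lists, 96 of them tested. Of these, 35 were higher and 37 lower in the Arf1-deficient libraries, with a median log2 fold change of 0.005, beside 0.003 over all tested genes. The 72 called genes were 75% of those tested (36.5% higher and 38.5% lower), a larger share than the 64.5% of all tested genes, and this gap was not tested. The counts for each list below stand beside 31.6% higher and 32.9% lower over all tested genes, and no list was tested as a set.

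Among 16 genes of the eIF2 kinases, eIF2, its exchange factor eIF2B and its phosphatase subunits, 8 were higher and 3 lower (median 0.13). Impact, an inhibitor of Gcn2, rose from 106 ± 1.63 CPM to 194 ± 6.29 CPM (log2 fold change 0.87). Eif2ak1, the heme-regulated kinase, rose from 33.4 ± 1.95 CPM to 57.2 ± 2.63 CPM (0.78). The eIF2B subunits Eif2b1 (0.62) and Eif2b4 (0.46) were also higher. The phosphatase subunit Ppp1r15a, named after its values were seen, was higher too (0.37, adjusted p = 0.000617). Among the kinase genes chosen after their values were seen, Eif2ak4 was at -0.11 (adjusted p = 0.149) and Eif2ak3 at -0.24 (adjusted p = 0.0358), the latter called with shArf1-2 (-0.41) and not with shArf1-1 (-0.08), a difference of -0.33 between the hairpins that passed (adjusted p = 0.00492).

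Of 9 basic leucine zipper partners and related stress factors, 2 were higher and 6 lower (median -0.84). Atf5, the closest paralog of Atf4, rose from 45.3 ± 2.29 CPM to 100.2 ± 7.58 CPM (log2 fold change 1.14, SE 0.07). Crebrf, a factor linked to the unfolded protein response, fell from 34.2 ± 6.70 CPM to 5.38 ± 1.06 CPM (-2.67, SE 0.15). Atf3 and Fos, which pair with other leucine zipper proteins, fell by 0.95 and 0.92 on the log2 scale. Ddit3 (Chop), a partner and target of Atf4 in endoplasmic reticulum stress and named here after its values were seen, was at 81.05 ± 6.43 CPM in shlucif, 36.9 ± 5.91 CPM with shArf1-1 and 53.3 ± 1.16 CPM with shArf1-2. Ddit3 passed as lower with either hairpin (-1.14 and -0.61), and the hairpins differed by 0.53 (adjusted p = 7.08e-05).

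Of 12 other serine, glycine and one-carbon enzymes, 4 were higher and 4 lower (median 0.07). Psph, the last step of serine synthesis, rose from 58.97 ± 3.36 CPM to 84.0 ± 4.11 CPM (log2 fold change 0.51). The 3 listed proteins of glycine cleavage did not move together, with Amt (-0.81) and Gldc (-0.53) lower and Gcsh (0.47) higher. The enzymes of proline, aspartate, alanine and cysteine metabolism had 1 higher and 6 lower of 9 (median -0.25). Cbs (-0.56) and Cth (-0.30), the transsulfuration enzymes, and Got1 (-0.49), the cytosolic aspartate aminotransferase, were lower, and Gpt2 (0.38), the mitochondrial alanine aminotransferase, was higher. Cbs and Cth, like the 4 genes named above, were higher with shArf1-2 than with shArf1-1, by 0.42 (adjusted p = 0.00175) and 0.44 (adjusted p = 4.97e-05). Cth stood at 62.3 ± 3.33 CPM in shlucif, 43.0 ± 0.505 CPM with shArf1-1 and 58.2 ± 0.946 CPM with shArf1-2, so its pooled fall came mostly from shArf1-1.

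Amino acid transporters of the response were 4 higher and 3 lower of 9 (median 0.23). Slc38a2, the neutral amino acid transporter Snat2, rose from 203 ± 0.934 CPM to 446.5 ± 61.0 CPM (log2 fold change 1.13, SE 0.10). Slc1a4 (0.62) and the cationic transporter Slc7a1 (0.60) were higher, and Slc3a2, the heavy chain that partners light chains such as Slc7a5, was lower (-0.38). Slc38a2 and Slc7a1 differed between the hairpins in the direction opposite to Ddit4, lower with shArf1-2 by 0.34 (adjusted p = 1.63e-05) and 0.53 (adjusted p = 2.61e-09). The cytosolic aminoacyl-tRNA synthetases were 6 higher and 1 lower of 12 (median 0.11). Lars (0.62), Tars (0.53) and Iars (0.45), for leucine, threonine and isoleucine, were higher, and Sars (-0.53), for serine, was the 1 that fell.

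Of 13 other stress targets, 11 were tested, 3 were higher and 7 lower (median -0.53). Stc2, a secreted stanniocalcin, rose (log2 fold change 1.28), while the cell death gene Bbc3 (-1.20), the autophagy receptor Sqstm1 (-1.16) and the stress cytokine Gdf15 (-0.99) were lower. Sqstm1 went from 1460.0 ± 83.1 CPM in shlucif to 655 ± 38.0 CPM in the Arf1-deficient libraries. Xpot and Herpud1, named after their values were seen, were the other higher genes of this list. The mean of Xpot rose from 275.7 CPM in shlucif to 473.1 CPM in the Arf1-deficient libraries, and that of Herpud1 from 85.37 CPM to 119 CPM. In both genes the Arf1-deficient libraries did not overlap the shlucif libraries. Pmaip1, named after its values were seen, was at 4.19 ± 0.373 CPM in shlucif and at 0 counts in all 6 Arf1-deficient libraries, at least 19.0-fold lower against a floor of 3 counts per library, and placing it at that bound left the median as it was.

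**Figure D4:**
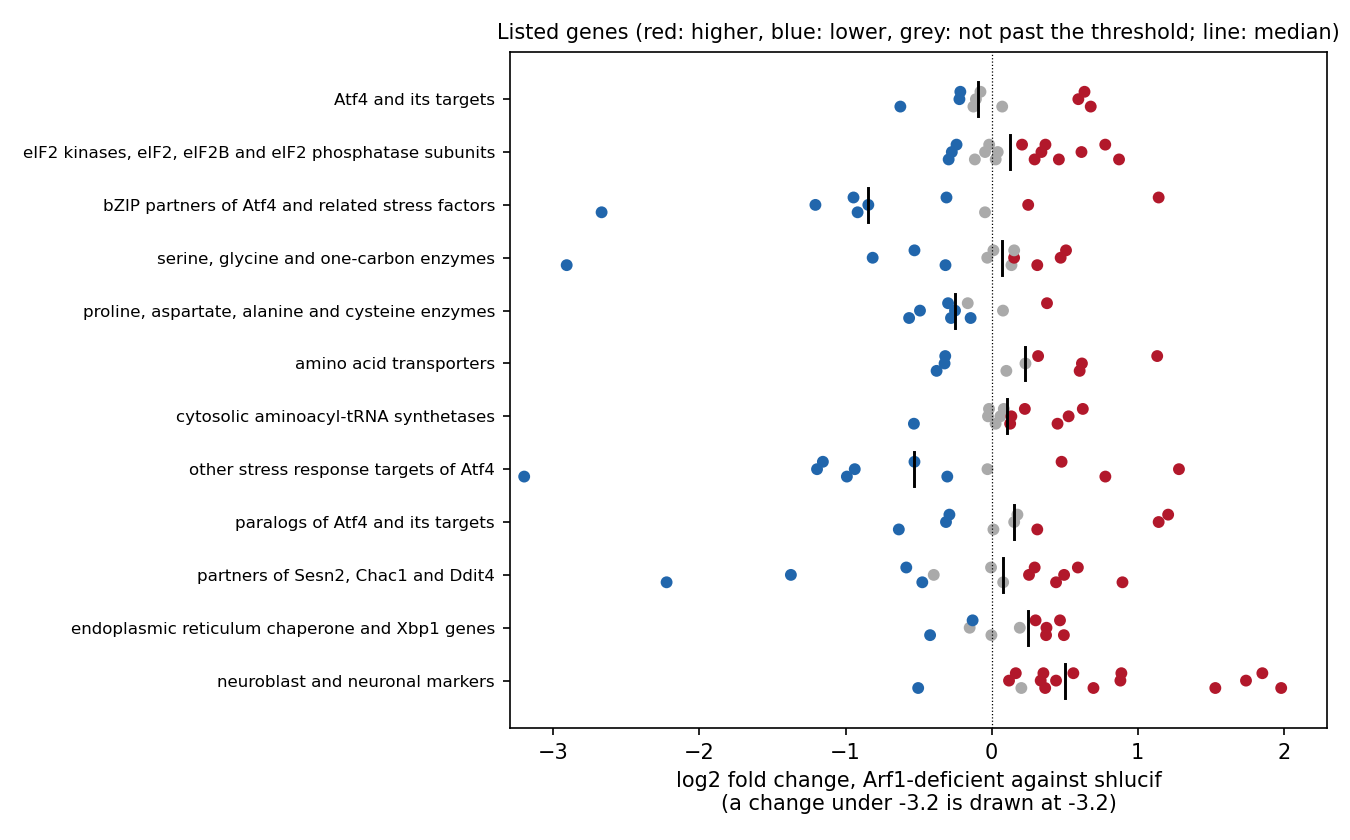
Log2 fold change between 6 Arf1-deficient and 3 shlucif libraries (horizontal axis) for Atf4 and its 9 targets, the 9 further lists, endoplasmic reticulum genes and neuronal markers; each point is a gene, red higher, blue lower and grey not past the threshold, with a black line at the median, and values of genes near 0 counts depend on the fit. The bZIP and other stress target lists have medians of -0.84 and -0.53, and the 10 genes spread from -0.62 to 0.68.

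Paralogs showed whether a change was shared within a gene family. Chac2, the paralog of Chac1, was also higher (from 4.72 ± 0.882 CPM to 10.9 ± 1.68 CPM, log2 fold change 1.21), as was Atf5 beside Atf4. The sestrins parted, with Sesn1 (-0.29) and Sesn3 (-0.31) lower where Sesn2 was higher. Trib2 was lower (-0.64), and Trib1 was at 0.18 (adjusted p = 0.17). Mthfd1l, the mitochondrial formate synthetase downstream of Mthfd2, was higher (0.31), and Mthfd2l was at 0.01 (adjusted p = 0.962). Shmt1, the cytosolic counterpart of Shmt2, was at 0.15 (adjusted p = 0.322) over the 6 libraries, at 0.36 with shArf1-1 (adjusted p = 0.000175) and at -0.08 with shArf1-2 (adjusted p = 0.407). Ddit4l had 0 counts in every library.

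Of 13 genes whose products work with Sesn2, Chac1 or Ddit4, 6 were higher and 4 lower (median 0.08). Castor1, an arginine sensor on the same GATOR2 complex as Sesn2, fell from 22.5 ± 1.24 CPM to 4.80 ± 1.61 CPM (log2 fold change -2.23, SE 0.20), and Seh1l, a GATOR2 subunit, rose (0.90). Txnip, which binds Ddit4, fell by 1.37, and Gclm, the regulatory subunit of the enzyme that starts glutathione synthesis, was higher (0.59).

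Endoplasmic reticulum chaperones and Xbp1 genes, which answer chiefly to Atf6 and Ire1, were 5 higher and 2 lower of 10 (median 0.25). Dnajc3 (0.50), Hyou1 (0.47) and Xbp1 (0.37) were higher and Edem1 (-0.42) lower. Hspa5 (BiP), named after its values were seen, rose from 861 ± 20.8 CPM in shlucif to 1062 ± 46.5 CPM in the Arf1-deficient libraries. Creld2 was the 1 listed gene that passed in opposite directions with the hairpins, at -0.23 with shArf1-1 (adjusted p = 0.00727) and 0.51 with shArf1-2 (adjusted p = 1.198e-07), as did 27 of all tested genes.

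Since the shlucif libraries held macrophage transcripts that the others nearly lacked, the libraries were also scaled without the 185 genes seen only in the controls. That step changes only the scaling factors. It cannot show what macrophage RNA added to the counts of each gene in shlucif, which was not tested. Atf4 was then at 0.59, Chac1 at 0.68, Sesn2 at 0.63, Phgdh at -0.63, Asns at -0.22 and Mthfd2 at -0.22, all 6 past the threshold. With the mean of the hairpin contrasts in place of the pooled group, Ddit4 also passed (-0.14, adjusted p = 0.0074), a mean of 1 change that passed with shArf1-1 and 1 that did not with shArf1-2.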

How the data were processed

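The authors deposited 1 table for 9 libraries with a raw count and an FPKM value per gene. Deposited FPKM values equal count over listed gene length and library total, to within 1.89e-05 percent. The labels name mm10; the aligner, the counter, strand use and filters are not given in the sources used here. Columns named with the number 2 directly after Arf were read as shArf1-2. Of 21907 lines, 8 name no gene and were dropped. Coordinates are GRCm38 (GENCODE M21), matched by identifier, and sequences come from RefSeq.

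Counts (totals 11182479 to 15594615, precision for counting error only) were fitted in edgeR 4.0.16 (R 4.3.3) with filterByExpr, TMM, glmQLFit (robust) and glmQLFTest, in a 2-group and a 3-group fit, at a Benjamini-Hochberg adjusted p under 0.05, and the code was tested on simulated data. SE is |log2 fold change| over the root of F. CPM values are TMM-scaled. Alternatives were DESeq2 1.42.0, other scalings and filters, limma 3.58.1 on log2(FPKM + 1) and log2(FPKM + 0.1), which understates changes of low genes, a replicate block, the mean of hairpin contrasts, fits of 6 libraries, and each library left out.

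The genes and lists were chosen with earlier results of these data known. Named were the 10 genes, all paralogs, Arf1, up to 4 genes per further list with the largest change among called genes of at least 5 CPM without overlap, genes called in opposite directions by the hairpins, and the 5 genes nearest Atf4. Outside this rule, Itgam was named as a macrophage marker. Ddit3, Pmaip1, Eif2ak3, Eif2ak4, Ppp1r15a, Xpot, Herpud1 and Hspa5 were added after their values were seen.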

Additional observations from a re-analysis of the deposited data

Results flagged for a closer look

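In 4 of the 10 genes the change with shArf1-2 differed from that with shArf1-1 by the test of the difference itself, on the log2 scale by 0.47 for Ddit4, 0.38 for Trib3, 0.31 for Chac1 and 0.17 for Phgdh, each higher with shArf1-2. The fits share 1 estimate of the spread, and Arf1 was also 0.34 higher with shArf1-2. In no gene did a single library stand apart from the other 5 among the 6 Arf1-deficient ones (10 groups checked). These 6 libraries pool 2 hairpins, and a difference between the hairpins widens their range. The chance rate of about 1 group in 20 then does not hold, and the check cannot show whether a library stood apart within its hairpin. The shlucif libraries were not checked this way.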

How the results depend on the processing

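The number of the 10 genes past the threshold was 6 between Arf1-deficient and shlucif libraries and stayed at 6 in each fit without 1 library, and it was 6 to 7 under the other 10 settings. It ranged from 8 to 9 with shArf1-1 and from 6 to 7 with shArf1-2 without 1 library. Between the hairpins it ranged from 2, without shArf1-1 replicate 3, to 4. Of the 99 listed genes, 65 to 73 passed without 1 library (72 with all) and 69 to 75 otherwise. Of 760 recomputed log2 fold changes of the 10 genes, 734 kept direction and call, 15 gained and 4 lost the call, and 7 changed sign, none of the 7 past the threshold. Without 1 library the difference between the hairpins ranged from -0.0069 to 0.0395 for Psat1 and from -0.0051 to 0.103 for Shmt2, against main values of 0.01 and 0.05. Against shlucif, Shmt2 with shArf1-2 was at 0.022 under library size scaling, 0.0243 on log2(FPKM + 1), 0.0245 on log2(FPKM + 0.1) and -0.0914 to 0.0257 without 1 library, the last without shlucif replicate 1, which also put Trib3 with shArf1-2 past the threshold (0.16). Shmt2 with shArf1-1 passed without shArf1-1 replicate 2 (-0.16). Under library size scaling and on FPKM, Psat1 passed in each comparison with shlucif (0.12 to 0.15), as did Ddit4 with shArf1-2 (0.16). Library size scaling moved the median of all genes to 0.07 from 0.003. The causes were not tested.

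Same-numbered libraries showed no shared deviation (mean correlation 0.007 over 9 pairs, from -0.08 to 0.09). The labels do not say whether such libraries were prepared together, and these correlations do not settle it. With a replicate block 6 of the 10 genes and 70 of the 99 listed genes passed, and 7808 of all genes in place of 8027. Depth limits only genes of few counts, such as Pmaip1, since each of the 10 genes had at least 524 counts in every library.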
